A study of Mus musculus with 8 samples.

Results

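Broad H3K9me3 domains were defined in mouse ES cells before the loss of the H3K9 methyltransferase Setdb1, and their ChIP-seq signal was followed for 6 days after its deletion. A domain was a run of 4 or more neighbouring 5-kb windows on chromosomes 1 to 19 (coordinates in mm9, counted from 1), and domains were selected on T = 0 tags. In every window of the run the library made with the Upstate-type antibody at T = 0 reached at least 3 times its median (30 tags against a median of 10), and the summed tags of both Abcam libraries of T = 0 reached at least 1.5 times their own median (63 tags against a median of 42). A tag is 1 uniquely mapped read, counted at the midpoint of its interval. Of 8252 runs of windows that passed both limits, 190 (2.30%) were domains, and the other 8062 were short runs of 1 to 3 windows. The domains held 1041 of the 10946 passing windows and covered 5205 kb.

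The cells were JM8 ES cells (C57BL/6N background) with 1 conditional and 1 targeted allele of Setdb1, named tm1c/tm2 in the study and tm1a/tm2 in the sample labels, and with a CreERT2 recombinase expressed from the Rosa26 locus. The T = 0 cells were untreated. The T = 2d, T = 4d and T = 6d cells were exposed to 0.8 µM 4′OHT for 48 h and collected 2, 4 or 6 days after its first addition. 4′OHT activates the recombinase, which converts the conditional allele to a deleted allele (tm1d/tm2 in the study, tm1c/tm2 in the labels). Chromatin of all 4 time points was precipitated with a gift antibody similar to the Upstate antibody 07-442 (Upstate-type), and chromatin of T = 0 and T = 6d with Abcam 8898 lots 58206 and 638466. Each of the 8 libraries is the only one of its antibody and time point. A test on tags therefore compared libraries and not conditions, and its P values and intervals cover counting error only. Control tm1c/+ cells and input libraries were not analysed here, so an effect of 4′OHT or of time in culture and an effect of Setdb1 loss cannot be told apart in these values.

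Trimethylation of lysine 9 of histone H3 is a mark of silent chromatin that is bound by HP1 proteins. Setdb1 is brought to its targets by the corepressor KAP1, which is itself recruited by KRAB zinc finger proteins, and in ES cells it is known for silencing endogenous retroviruses. Suv39h1 and Suv39h2 place the same mark at pericentromeric repeats. Broad stretches of H3K9me3 can form where the mark spreads from a recruitment site or where many recruitment sites lie close together.

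Each library of the Upstate-type antibody held 6887819 tags, each of lot 58206 held 8503927 and each of lot 638466 held 12194174, since the authors had brought the libraries of an antibody to the same number. Background windows were those that stayed under 1.5 times the median in both the Upstate-type and the summed Abcam tags of T = 0, and their share of tags was 38.1% at T = 2d and 45.9% at T = 6d with the Upstate-type antibody. Scaling to these windows in place of all tags therefore lowers each ratio of T = 6d to T = 2d, and the median ratio of 20-kb tiles outside the domains was 1.09 when all tags were used. In the 8 libraries chromosome 8 averaged 1.19 to 1.23 times as many tags per window as the median of the other chromosomes. Chromosome 11 had a higher mean than chromosome 8 in each Upstate-type library (17.6 against 16.4 at T = 0). Its median was lower in each of these libraries (10 against 11 tags per window at T = 0). With the Abcam lots its mean was lower than that of chromosome 8. The part of chromosome 8 in the results was not tested, and the main results are given for this chromosome and the others as well.

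Most domains were only as wide as the rule required. The median width was 20 kb, 106 domains measured 20 kb, 37 measured 25 kb and 47 measured 30 kb or more. Only 13 reached 50 kb, and the widest spanned 245 kb. Chromosome 8 held 52 of the 190 domains (27.4%) with 5.24% of the windows, and it held 6 of the 13 widest. On this chromosome 25.5% of the windows were over the limit set on the Abcam lots, and its pooled Abcam median was 50 tags. Chromosomes 1 and 4 followed with 14 domains each, and chromosomes 14 and 19 had 1 each. When the limits were set by the median of each chromosome, a setting added after seeing these counts, the rule gave 180 domains, and 10 of them (5.56%) were on chromosome 8. Of the 180, 128 (71.1%) overlapped a domain of the main rule, and of the 190, 129 (67.9%) were overlapped.

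**Figure D1:**
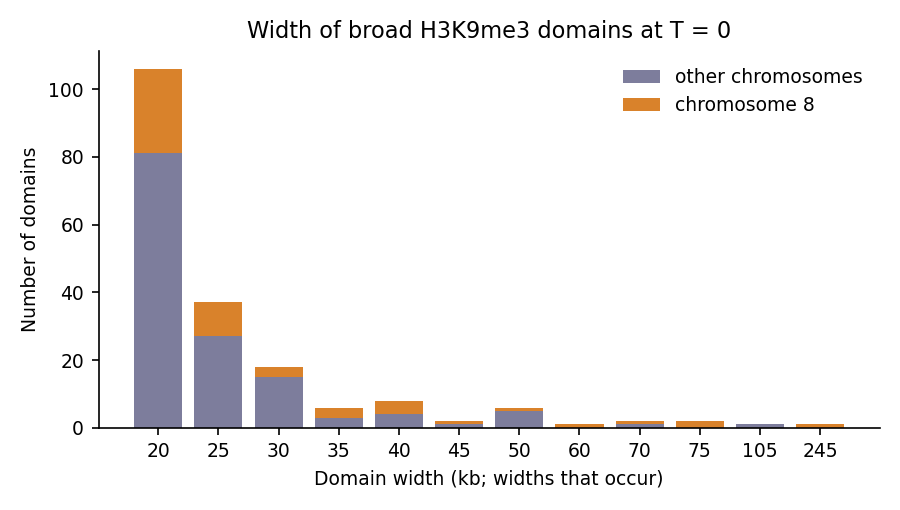
Number of domains (vertical axis) at each width in kb that occurred (horizontal axis), with the 52 domains of chromosome 8 in orange and the 138 domains of the other chromosomes in grey. Most domains are 20 or 25 kb wide, and the domain of 245 kb lies on chromosome 8.

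The limits cut through a continuous range of values. Of the domain windows, 17 held exactly 30 Upstate-type tags and 36 held exactly 63 pooled Abcam tags, the lowest counts that passed. A further 475 windows over the Abcam limit held 29 Upstate-type tags and failed by 1 tag, and 310 runs ended at 3 windows. Many domains also lay close to each other. There were 19 groups of 2 to 5 domains with gaps of at most 100 kb, holding 46 domains, and 9 of these groups were on chromosome 8. The largest group spanned 560 kb at chr8:26715001-27275000 and comprised 5 domains with 440 kb of domain windows. A second group of 4 domains spanned 240 kb at chr11:3025001-3265000, close to the centromeric end of the assembled chromosome.

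The level of the mark within domains differed between antibodies. With the Upstate-type antibody the median domain held 70.0 tags per window at T = 0, which is 7.00 times the library median, and single domains ranged from 3.42 to 30.7 times. With lot 58206 the median domain held 39.1 tags per window (2.45 times) and with lot 638466 48.8 tags per window (1.95 times). The T = 0 levels chose the domains and are given as a description. Among the 190 domains the T = 0 levels of both Abcam lots had a Spearman's rho of 0.591. Those of the Upstate-type antibody had a rho of 0.273 with lot 58206 and 0.149 with lot 638466, over domains that had all passed limits on these libraries.

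At T = 6d the median level was below that of T = 0 with each antibody. With the Upstate-type antibody it was about the same at T = 0 and T = 2d. The median domain held 71.0, 56.8 and 51.7 Upstate-type tags per window at the 3 later times. With lot 58206 it held 21.5 tags per window at T = 6d (1.34 times the library median) and with lot 638466 30 tags (1.20 times). The median domain was thus still at 5.17 times the library median with the Upstate-type antibody but near the genome-wide level with the Abcam lots. This does not compare the antibodies, since their median levels at T = 0 already differed (7.00, 2.45 and 1.95 times). The domains held 1.28% of all Upstate-type tags at T = 0 and 0.937% at T = 6d. Their share was 0.640% and 0.467% at these times for lot 58206, and 0.585% and 0.401% for lot 638466.

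**Figure D2:**
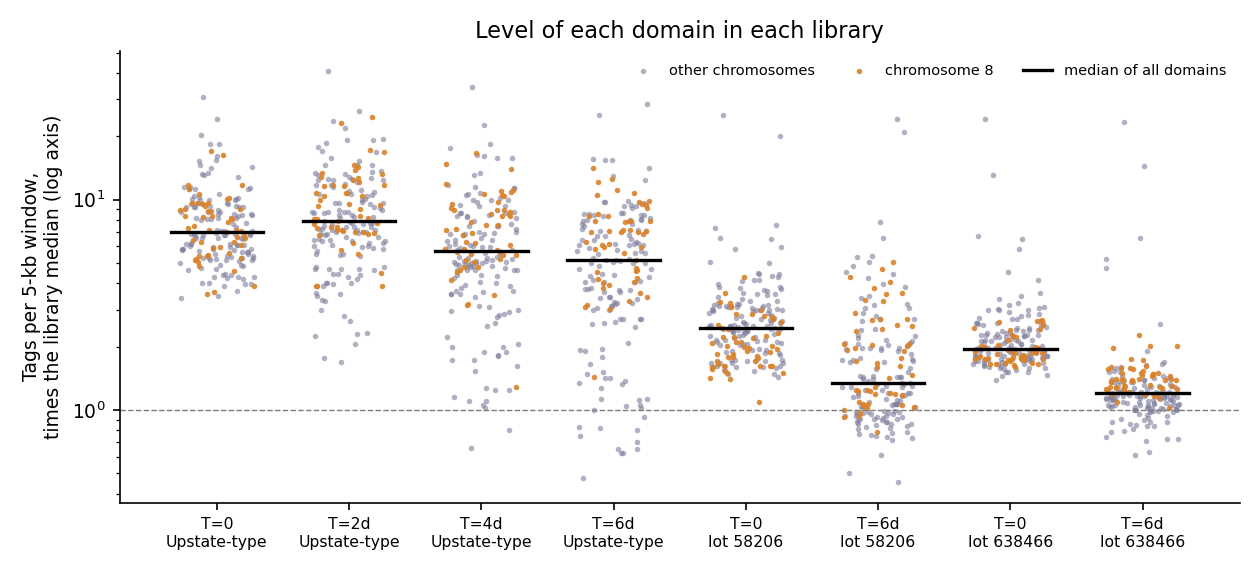
Tags per 5-kb window of each of the 190 domains, as times the median of the library (vertical log axis), in each of the 8 libraries (horizontal axis), with domains of chromosome 8 in orange and the median of all domains as a black bar. The median goes from 7.00 at T = 0 to 5.17 at T = 6d with the Upstate-type antibody, and the Abcam medians end at 1.34 and 1.20.

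Ratios to T = 0 are a description, because domains picked for high T = 0 counts are likely to have lower counts in any other library. With the Upstate-type antibody the median ratio was 1.01 for T = 2d, 0.849 for T = 4d and 0.679 for T = 6d. It was 0.640 with lot 58206 and 0.644 with lot 638466 at T = 6d. With the Upstate-type antibody 14 domains (7.37%) were more than 1.5-fold lower at T = 2d than at T = 0, against 11.7% of all domains and tiles. At T = 4d there were 63 (33.2%, against 12.2%) and at T = 6d 92 (48.4%, against 16.4%). With lot 58206 there were 100 (52.6%, against 8.44%) and with lot 638466 104 (54.7%, against 4.34%). Domains more than 1.5-fold higher at T = 6d numbered 4 for the Upstate-type antibody (against 15.6% of all domains and tiles), 8 for lot 58206 (against 5.55%) and 0 for lot 638466 (against 5.9%). Nothing was read from these counts, since the rule used the T = 0 libraries. Leaving out chromosome 8, the shares of domains more than 1.5-fold lower at T = 6d were 58.7%, 63.0% and 68.1%.

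The later libraries of the Upstate-type antibody played no part in the choice of domains and were tested among themselves, with Fisher's exact test (two-sided) on tags inside and outside a domain. A domain was called at a P below 0.01 with a change of more than 1.5-fold. Between T = 2d and T = 6d, 95 of 190 domains fell (50%, 95% Clopper-Pearson interval 42.7 to 57.3%) and 2 rose. This interval treats domains as independent draws. All of them were measured in the same 2 libraries and 46 lay in groups, so it does not cover differences between libraries. The background was 5.35% lower and 7.66% higher among 119006 regions, comprising the domains and all 20-kb tiles of the rest of these chromosomes. Among tiles that averaged at least 2 times the median over these times, 14.8% fell. Of the 8062 short runs 29.7% fell and 1.43% rose, though a short run holds fewer tags and is called less readily at the same change. The median ratio of T = 6d to T = 2d was 0.670, with quartiles of 0.495 and 0.856. The 95% interval of the ratio lay below 1 in 143 domains, above 1 in 5 and held 1 in 42. With P adjusted (Benjamini-Hochberg) over all regions and a limit of 0.05, the counts were again 95 and 2, against 4.93% and 6.61% of all regions. Scaled to background windows, 129 domains (67.9%) fell and 0 rose.

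**Figure D3:**
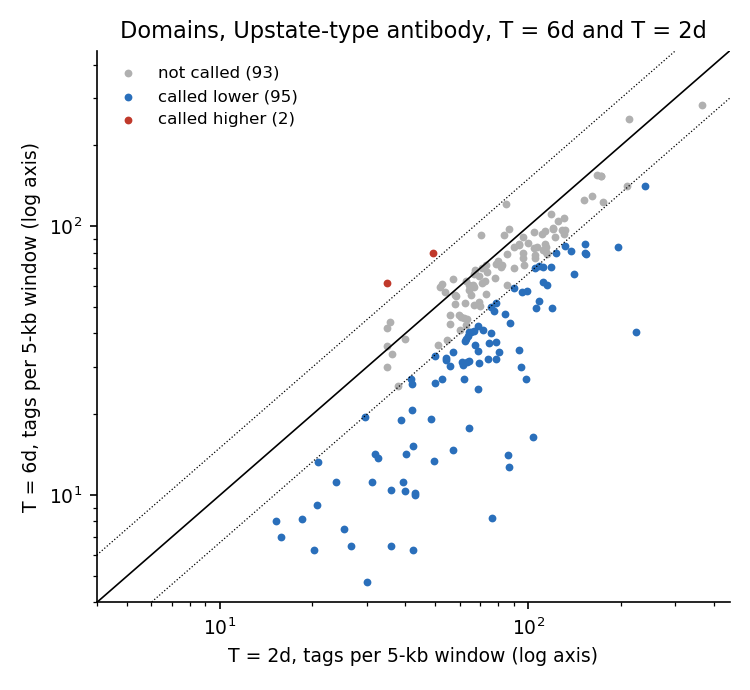
Tags per 5-kb window of each domain with the Upstate-type antibody at T = 2d (horizontal log axis) and T = 6d (vertical log axis), with domains called lower in blue, called higher in red and not called in grey. The solid line marks equal tags and the dotted lines a 1.5-fold change. The 95 blue points lie below the lower dotted line and extend to far fewer tags at T = 6d.

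More domains were called in the first of the 2 steps. Between T = 2d and T = 4d, 45 domains fell (23.7%, against 2.23% of all regions) and 0 rose (against 3.13%), with a median ratio of 0.799. Between T = 4d and T = 6d, 32 fell (16.8%, against 1.83%) and 3 rose (1.58%, against 2.47%), with a median ratio of 0.852. Of the short runs 16.2% fell at the first step and 6.09% at the second. With adjusted P these were 45 and 28 domains lower, against 1.3% and 0.947% of all regions. At an unadjusted P and the same fold, 13 domains fell at both steps (against 0.162% of all regions), 31 fell at the first only (against 1.97%), 19 fell at the second only (against 1.5%) and 124 were called at neither (against 90.8%). Without a test, the count was lower at both steps from T = 2d on in 127 domains (66.8%, against 17.5%). It was lower at every step from T = 0 on in 58 (30.5%, against 7.53%), of which nothing was read since T = 0 chose the domains. Of the 124 domains, 33 were nevertheless called lower over both steps together. A further 1 fell and then rose (against 0.104%), and 2 rose at the second step without having fallen (against 2.29%). On chromosome 8 the shares that fell were 5.77% and 7.69% at the first and the second step, and on the other chromosomes 30.4% and 20.3%. The difference between the steps was not tested, and with 2-kb windows the order turned, with 5 of 35 domains (14.3%) at the first step and 6 (17.1%) at the second. Scaled to background windows, 83 domains (43.7%) fell at the first step.

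The classes were made from the same Upstate-type counts, so their time courses are a description of the classes. The 13 domains that fell at both steps had median levels of 7.14, 3.55 and 1.42 times the library median at T = 2d, T = 4d and T = 6d, so that they ended close to the rest of the genome. The 31 that fell at the first step only had levels of 6.67, 3.13 and 2.70. The 19 that fell at the second only had levels of 7.03, 4.93 and 3.10. The 124 domains called at neither step had levels of 8.69, 6.84 and 6.60, and 45 of them were on chromosome 8. The T = 2d library had a median of 9 tags and each later library one of 10, which enlarges the first drop in these levels. In tags per window, the medians were 64.25, 35.5 and 14.2 for the 13 domains and 60, 31.3 and 27 for the 31. They were 63.25, 49.25 and 31 for the 19 domains and 78.25, 68.4 and 66 for the 124. In the Abcam lots, the T = 6d count over that of T = 0 had a median of 0.379 and 0.463 (lot 58206 and lot 638466) for the domains that fell at the first step only. For those that fell at both steps it was 0.441 and 0.434, and for those that fell at the second only 0.509 and 0.488. It was 0.777 and 0.690 for those called at neither step.

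The 5 domains with the lowest ratio of T = 6d to T = 2d among those called lower lay on 4 chromosomes. That at chr9:110865001-110885000 held 333, 305, 160 and 33 Upstate-type tags at T = 0, T = 2d, T = 4d and T = 6d (ratio 0.108, Fisher's exact test on these libraries, P = 2.60e-56). Its counts dropped at each step, by the largest factor between T = 4d and T = 6d. Lot 58206 gave 211 tags at T = 0 and 46 at T = 6d, and lot 638466 gave 197 and 61. The domain at chr13:6625001-6645000 held 214, 346, 276 and 51 tags, so that its Upstate-type level at T = 2d and T = 4d was above that at T = 0. The domain at chr14:50425001-50445000, the only domain of its chromosome, held 215, 169, 118 and 25 tags. The domain of 50 kb at chr12:87810001-87860000 held 991, 1038, 460 and 165 tags (ratio 0.159), and each of its 10 windows was lower at T = 6d than at T = 2d, with ratios from 0.125 to 0.194.

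The fifth of these was the domain at chr9:38215001-38235000, which overlaps the region drawn in the study for Olfr901, a gene of the olfactory receptor family. Its Upstate-type tags were 176, 120, 44 and 19 at T = 0, T = 2d, T = 4d and T = 6d, and the fall from T = 2d to T = 6d had a ratio of 0.158 (Fisher's exact test on these libraries, P = 4.01e-19). Both Abcam lots were lower at T = 6d here as well, with 159 and 50 tags for lot 58206 and 145 and 63 tags for lot 638466. None of its 4 windows remained at 3 times the Upstate-type median at T = 6d. The regions drawn for H19, Cdh3 and the control overlapped 0 domains but held 1, 2 and 1 short runs.

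The 3 domains with the highest ratio were 2 on chromosome 8 and 1 on chromosome 1. The domain at chr8:87045001-87065000 held 155, 140, 126 and 247 Upstate-type tags (ratio of T = 6d to T = 2d 1.76) and was called higher, yet it held 129 and 70 tags at T = 0 and T = 6d with lot 58206, and 200 and 153 with lot 638466. The domain at chr1:90105001-90150000 held 441, 442, 543 and 716 tags (ratio 1.62) and was the other domain called higher. It held 854 and 1125 tags at T = 0 and T = 6d with lot 58206 and 1461 and 1475 with lot 638466, and was the 1 domain that was higher at T = 6d than at T = 0 with all 3 antibodies. The domain at chr8:46120001-46140000 held 279, 339, 379 and 485 tags (ratio 1.43) and was not called. Scaled to background windows, 0 domains were called higher between T = 2d and T = 6d, so that both higher calls were lost. Chosen after their values were seen, the other domains called higher between T = 4d and T = 6d were chr4:57855001-57875000, with 233, 143, 82 and 177 tags, and chr7:137855001-137875000, with 225, 210, 147 and 245 tags. Both had their lowest count at T = 4d, and both had fewer tags at T = 6d than at T = 0 with each Abcam lot.

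Of the 6 widest domains, including 2 of equal width in the last place, 5 changed by less than 1.5-fold between T = 2d and T = 6d and were not called, and 1 fell. The widest, chr8:26715001-26960000, held 4729, 6286, 5380 and 4763 Upstate-type tags at T = 0, T = 2d, T = 4d and T = 6d. It went from 2117 to 1955 tags with lot 58206 and from 2976 to 2454 with lot 638466. Its 49 windows ranged from 33 to 242 Upstate-type tags at T = 0, and all 49 were still at 3 times the median or more at T = 6d. Between T = 2d and T = 6d the ratio of its windows ranged from 0.448 to 1.47, and 31 of them were lower. The domain of 105 kb at chr11:3025001-3130000 held 5050, 4453, 4755 and 5277 tags and was the strongest with the Abcam lots, with 8462 and 8078 tags for lot 58206 and 12714 and 12220 for lot 638466. Its ratio of T = 6d to T = 0 was near 1 with each antibody (1.04, 0.955 and 0.961). The domains at chr8:27175001-27250000 and chr8:34920001-34995000 (75 kb each) held 1454 and 1709 tags at T = 2d and 1075 and 1257 at T = 6d. The domain of 70 kb at chr8:27055001-27125000 held 1607 and 1110. The domain that fell, of the same 70 kb at chr10:82855001-82925000, held 1293, 962, 438 and 348 Upstate-type tags, with a ratio of T = 6d to T = 2d of 0.362 (Fisher's exact test on these libraries, P = 7.56e-67). It held 1125 and 260 tags at T = 0 and T = 6d with lot 58206, and 1177 and 300 with lot 638466, so that it was much lower with each antibody.

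The domains with the most and the fewest Upstate-type tags per window at T = 0 were chr9:3015001-3040000 and chr16:4800001-4825000. The first held 1536, 1832, 1716 and 1418 Upstate-type tags, 1600 and 1677 tags with lot 58206 and 1641 and 1812 tags with lot 638466, so that both Abcam lots were slightly higher at T = 6d. The second held 171, 79, 33 and 35 Upstate-type tags, 177 and 67 tags with lot 58206 and 244 and 129 with lot 638466. With the Upstate-type antibody its ratio to T = 0 was 0.462 at T = 2d already, and it did not go lower after T = 4d. Altogether 7 domains lay within the first megabase of tags of a chromosome, 4 of them on chromosome 11 and 1 each on chromosomes 3, 8 and 9. Of these 7, 0 were called lower between T = 2d and T = 6d, against 50% of all domains, and their ratios ranged from 0.738 to 1.19. Their median ratios of T = 6d to T = 0 were 0.923, 0.824 and 0.760 for the Upstate-type antibody, lot 58206 and lot 638466.

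Groups of neighbouring domains differed widely in their loss. Summed over the domains of a group, the ratio of T = 6d to T = 2d ranged from 0.236 to 1.12 among the 19 groups. The group of 5 domains on chromosome 8 held 8049, 10129, 8649 and 7554 Upstate-type tags at T = 0, T = 2d, T = 4d and T = 6d (ratio 0.746), and the group of 4 on chromosome 11 held 6535, 6082, 6218 and 6814 (ratio 1.12). The other groups of 3 domains or more, at chr6:37715001-37890000, chr8:34870001-35040000 and chr8:109930001-110080000, had ratios of 0.461, 0.697 and 0.955. Of these 5 groups that on chromosome 6 was the 1 with a marked decrease, from 755 tags at T = 2d to 348 at T = 6d, and its Abcam tags were 685 and 231 with lot 58206 and 854 and 406 with lot 638466. These groups were singled out after their values were seen and were not tested as groups.

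The domains strongest with the Abcam lots differed in their later levels. The pooled Abcam level at T = 0 ranged from 1.55 to 24.0 times its median over the domains, with a median of 2.06, and 6 domains were over 5 times. Of these 6, the domain at chr10:82820001-82850000 had the lowest ratios of T = 6d to T = 0, with 966 and 423 Upstate-type tags, 631 and 167 tags with lot 58206 and 675 and 200 with lot 638466. The neighbouring domains at chr1:90105001-90150000 and chr1:90155001-90190000, 1 window apart, differed in course. The first rose with the Upstate-type antibody as given above, and the second held 1292, 1203, 1283 and 1082 tags. The remaining domains were those of chromosomes 9 and 11 described above and chr4:146790001-146810000, which held 342, 266, 238 and 205 Upstate-type tags, 467 and 253 tags with lot 58206 and 585 and 475 with lot 638466. The ratio of T = 6d to T = 0 with lot 58206 was thus 0.265 and 0.542 in the domains of chromosomes 10 and 4, and from 0.871 to 1.32 in the other 4.

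Edges and centres of domains were compared in each library. The edge was the outermost window at each end and the centre the middle window, or the middle 2 where the number of windows was even. The mean level was lower at edges than at centres in 7 of the 8 libraries, the exception being lot 58206 at T = 6d. At T = 0 edges averaged 71.5 and centres 87.9 Upstate-type tags per window, and at T = 6d 53.5 and 59.4. The ratio of edge to centre thus went from 0.814 through 0.852 and 0.898 to 0.901. With lot 58206 it went from 0.849 to 1.06 and with lot 638466 from 0.902 to 0.956. The T = 0 libraries set the borders, so only the later Upstate-type libraries were tested.

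Edges lost slightly less than centres between T = 2d and T = 6d. The ratio of summed tags was 0.711 at edges and 0.672 at centres, and the ratio between them was 1.06 (95% interval 1.03 to 1.08, Fisher's exact test, P = 2.30e-05). The centre had the lower ratio in 115 domains and the edge in 75. The difference was seen off chromosome 8 (1.08, exact P = 3.78e-07), whereas on chromosome 8 the value was 0.992 (P = 0.728). It was 1.10 in the 84 domains of 5 or more windows (exact P = 4.74e-06) and 1.04 in the 106 domains of 4 windows (P = 0.0446), which does not pass the limit of 0.01. In domains of 6 or more windows, with the outer 2 windows at each end as the edge, the direction turned (0.967, exact P = 0.0292). With an Upstate-type limit of 5 times the median it was 1.01 (exact P = 0.591), so that the difference of edge and centre depended on how domains and edges were drawn.

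Outside the border the level was already raised. The first window outside had a median of 2.40 times the library median at T = 0 with the Upstate-type antibody, against 6.00 in the first window inside. In the sixth window outside it was 1.80. At T = 6d the first windows outside and inside had medians of 2.2 and 4.55 times. With lot 58206 the step at the border went from 1.38 outside and 2.00 inside at T = 0 to 1.0 and 1.13 at T = 6d. With lot 638466 it went from 1.36 and 1.92 to 1.12 and 1.20. A step at the border therefore remained at T = 6d with every antibody, and was small with the Abcam lots.

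**Figure D4:**
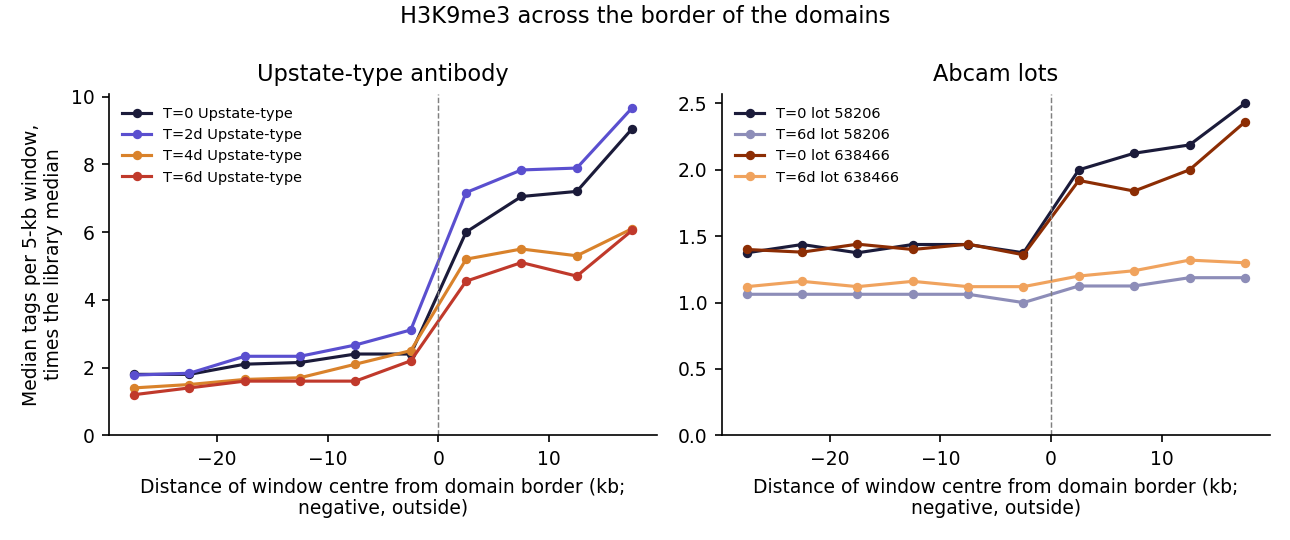
Median tags per 5-kb window, as times the library median (vertical axes from 0), against the distance of the window centre from the nearer domain border in kb (horizontal axes, negative outside), for the Upstate-type antibody (left) and both Abcam lots (right). Windows up to 10 kb inside come from all 190 domains, while the last point inside comes from 29 domains. The Upstate-type step is 2.40 to 6.00 at T = 0 and 2.2 to 4.55 at T = 6d.

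The windows of a domain differed in their loss less than the domains did. The SD of the log2 ratio of T = 6d to T = 2d was 0.69 among the 190 domains and 0.50 among windows of the same domain. Only the second was taken on log2(tags + 0.5), and it includes more counting error because a window holds fewer tags. Every window was lower at T = 6d than at T = 2d in 118 domains (against 8.31% of all domains and 20-kb tiles, the latter of 4 windows each), and every window was higher in 7 (against 13.8%).

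Whether width went with loss was tested on summed tags. Domains of 30 kb or more had a ratio of T = 6d to T = 2d of 0.738 and domains of 20 kb one of 0.704, and the ratio between them was 1.05 (Fisher's exact test, P = 4.46e-05). On chromosome 8 the value was 0.980 (exact P = 0.288) and on the other chromosomes 1.07 (exact P = 6.07e-07). Without the widest domain it was 1.04 (exact P = 0.000418), and without the 2 widest it turned to 0.952 (exact P = 6.55e-05). Leaving out the domain of 105 kb on chromosome 11 alone was not run. By number, 48 of 106 domains of 20 kb fell (45.3%), as did 22 of 37 of 25 kb (59.5%), 18 of 34 of 30 to 45 kb (52.9%) and 7 of 13 of 50 kb or more (53.8%). The tags summed over all domains went down about as much as those over short runs, with ratios of 0.709 and 0.717 (0.989 between them, exact P = 0.0467, not past 0.01). Without the 2 widest domains the value was 0.947 (exact P = 2.97e-20), within chromosome 8 0.944 and within the other chromosomes 0.970, so that domains lost slightly more than short runs in these comparisons. The direction of this difference turned under 5 of the alternatives.

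Domains on chromosome 8 kept more of the mark between T = 2d and T = 6d. There 15 of 52 fell (28.8%), against 80 of 138 elsewhere (58.0%). The summed ratios were 0.749 and 0.687, and the ratio between them was 1.09 (Fisher's exact test, P = 4.84e-16). This was not particular to domains, since short runs on chromosome 8 had 1.12 times the ratio of other short runs. For 20-kb tiles outside the domains the value was 1.03. Tag density on this chromosome was above the median of the others in all libraries. It moved with this result, and its part was not tested. Chromosome 11 had a higher mean at both times. It was 17.8 against 16.7 tags per window at T = 2d and 17.4 against 16.8 at T = 6d. The median window of chromosome 11 was lower, with 9 against 10 tags at T = 2d and 10 against 12 at T = 6d.

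How many windows stayed over the limits of the rule depended on how far over them they began, which was further for the Upstate-type antibody (a median of 7.00 times against a limit of 3) than for the summed Abcam tags (2.06 against 1.5). These counts therefore do not compare the antibodies, whose median ratios to T = 0 were given above. Of the 1041 domain windows, 92.1%, 77.6% and 70.9% were at 3 times the Upstate-type median or more at the later 3 time points, against 9.69%, 7.85% and 8.46% of all windows with a tag. A run of 4 such windows was left in 159, 112 and 97 domains, and no such window in 2, 18 and 29. In tags the limit was lower at T = 2d, where the library median was 9, than at T = 4d and T = 6d, where it was 10. The counts of T = 2d and of the later times are thus at unlike limits. With both limits applied at T = 6d, 13 domains kept a run of 4 windows and 103 had no window left. Of the domain windows 24.4% passed both limits then, against 0.750% of all windows with a tag. The Abcam limit alone left a run in 16 domains. Applied afresh to the T = 6d libraries, the rule gave 27 domains of 880 kb in total. Of these 27, 18 (66.7%) overlapped T = 0 domains, and of the 190 T = 0 domains 13 (6.84%) were overlapped. The 13 domains that kept a run included 6 on chromosome 8, 5 of the 6 widest domains and 3 within the first megabase. Of these 13, 1 was called lower between T = 2d and T = 6d.

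The antibodies were compared by the ratio of T = 6d to T = 0 in each domain. The T = 0 libraries of these ratios chose the domains, so the counts are a description from which nothing was read. With all 3 antibodies 127 of 190 domains were lower at T = 6d (against 19.4% of all domains and tiles) and 1 was higher (against 23.8%). More than 1.5-fold lower with all 3 were 64 domains (against 1.26%), and 51 were so with none (against 77.9%). The Upstate-type antibody alone passed this fold in 14 domains (against 11%), and both Abcam lots without it in 15 (against 0.355%). Lots 58206 and 638466 differed in direction in 38 domains that were higher with the first and lower with the second (against 15.9%). Across domains the log2 ratios had a Spearman's rho of 0.612 between the Upstate-type antibody and lot 58206, 0.602 with lot 638466 and 0.659 between both lots. On chromosome 8 these were 0.219, 0.114 and 0.0803 (n = 52), and on the other chromosomes 0.624, 0.603 and 0.706 (n = 138). The ratio of T = 6d to T = 2d with the Upstate-type antibody, which shares no library with the Abcam ratios, had a rho of 0.484 with lot 58206 and 0.441 with lot 638466 (n = 190 domains).

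The same ratios of the Abcam lots, again as a description, are given for the domains called in the later Upstate-type libraries. Of the 95 domains that fell between T = 2d and T = 6d, 62 were more than 1.5-fold lower than at T = 0 with both Abcam lots, as were 17 of the other 95 and 1.61% of all domains and tiles. The median ratios of the called domains were 0.495 with lot 58206 and 0.493 with lot 638466, and those of the others 0.869 and 0.718. On chromosome 8, 1 of 52 domains was more than 1.5-fold lower with all 3 antibodies and 28 with none, and elsewhere 63 and 23 of 138 were. All 3 antibodies thus fell on the same side of this fold in 29 of 52 domains on chromosome 8 and in 86 of 138 elsewhere, a difference that was not tested. The rho of the later Upstate-type ratio there was 0.180 with lot 58206 and -0.102 with lot 638466 (n = 52). At T = 6d the levels themselves had a rho of 0.380 between the Upstate-type antibody and lot 58206 and 0.458 with lot 638466, and on chromosome 8 of 0.244 and 0.00438.

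**Figure D5:**
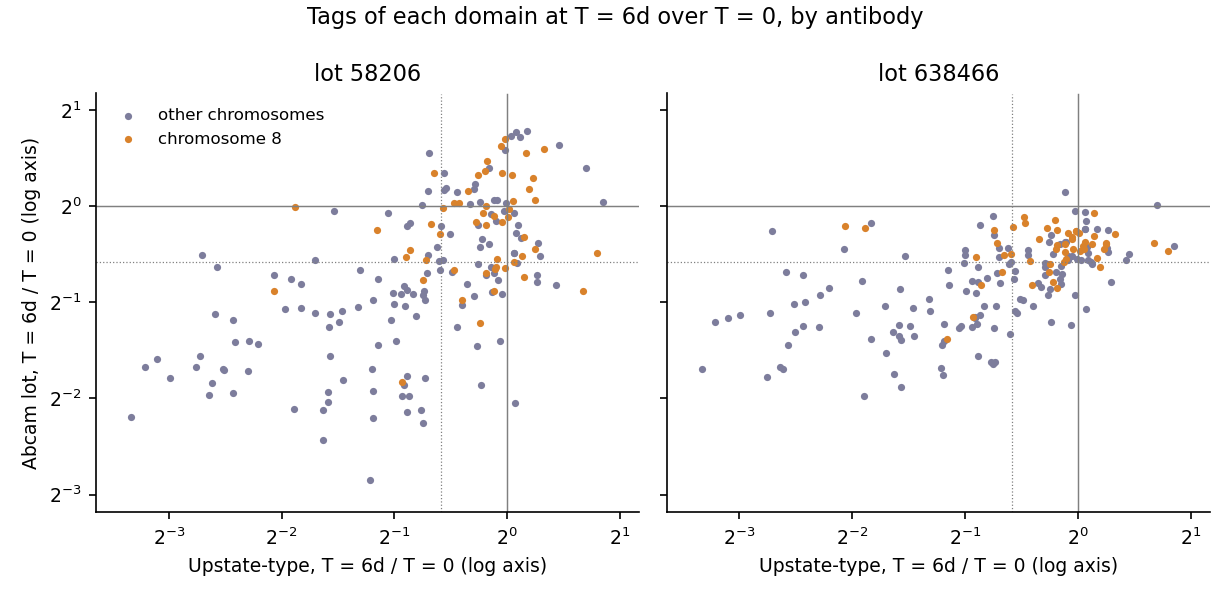
Ratio of T = 6d to T = 0 of each domain with the Upstate-type antibody (horizontal log axes) against lot 58206 (left) and lot 638466 (right; vertical log axes), with domains of chromosome 8 in orange. Solid lines mark a ratio of 1 and dotted lines a 1.5-fold decrease. Most points lie in the lower left, and the orange points gather near an Upstate-type ratio of 1.

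Few domains held sequence without tags. A stretch of at least 1.5 kb without a tag in any library occurred in 9 of 190 domains (4.74%), against 14.2% of 20-kb tiles without a domain. Of these 9 domains, 8 fell between T = 2d and T = 6d, as did 87 of the domains without such a stretch (48.1%). The choice of windows with many tags bears on the first of these shares, since a stretch without tags lowers the count of its window.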

How the data were processed

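H3K9me3 ChIP-seq was performed on ES cells before and after deletion of Setdb1. The authors kept uniquely mapped tags (0 or 1 mismatch), equalised tag numbers among libraries of an antibody and extended each tag to 300 bp. The deposited files list these intervals in mm9 and hold no counts or other values per region. Tags were counted here at interval midpoints in 5-kb windows with numpy 2.4.6, scipy 1.17.1 and pandas 2.3.3 in Python 3.11.15, and medians were taken over windows with a tag in any library. Samples were grouped by the antibody and time point in the labels. The domains, the lists and the tests were chosen with earlier results of these data known.

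Fisher's exact test (two-sided) compared tags inside and outside a region between 2 libraries, and a region was called where it changed over 1.5-fold and P was below 0.01. Intervals of ratios are 95% intervals of a binomial share. The share of domains that fell has a Clopper-Pearson interval, which treats domains as independent. On simulated data for T = 6d against T = 2d over 119006 regions, 50 of 50 domains lowered 3-fold and 49 of 50 lowered 2-fold were called. Called as well were 0 of 90 unchanged domains and 775 of 118806 unchanged regions in all (0.652%). Apart from the set changes, both libraries were drawn as Poisson counts around the same mean, without variation between libraries. These shares therefore cover counting error only and are not error rates of the calls in the real libraries. The named domains were the 5 widest and the domain tied with the last of these, added after its values were seen. Of the 2 tied domains, that with more Upstate-type T = 0 tags per window was counted among the 5. Also named were the 5 with the lowest and the 3 with the highest ratio of T = 6d to T = 2d. The rest had the most or fewest Upstate-type T = 0 tags per window, or overlapped the loci drawn in the study.

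The alternatives were other window sizes, limits, run lengths and choosing libraries, bridged gaps, scaling to background windows (below 1.5 times the median) and adjusted P. Genes, repeats and sequences in mm9 were not analysed here. There was no series-wide table, so that 0 per-sample columns remained unused. Figures were drawn with matplotlib 3.10.9.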

Additional observations from a re-analysis of the deposited data

Results flagged for a closer look

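Chromosome X was left out of the definition of domains. With the limits of chromosomes 1 to 19 it held 1 domain, at chrX:166405001-166440000, along with 23 short runs. Its Upstate-type tags were 934, 938, 634 and 563 at T = 0, T = 2d, T = 4d and T = 6d, so that it was lower from T = 4d on. It went from 605 to 336 tags with lot 58206 and from 719 to 466 with lot 638466. These are values outside the comparisons above, with no test.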

How the results depend on the processing

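No paired analysis was possible because there was 1 library per antibody and time point and the tests compared libraries of 1 antibody, and for the same reason no replicate could be left out. The number of domains depended most on the rule. It was 35 with 2-kb and 725 with 10-kb windows, 92 with an Upstate-type limit of 5 and 38 with an Abcam limit of 2 times the median, 47 with runs of 6 windows and 552 with 1 failing window bridged. It was 3587 when chosen on the Upstate-type T = 0 library alone and 1603 on both Abcam T = 0 libraries alone. Between T = 2d and T = 6d, 17.4% of the former and 25.4% of the latter fell, and 13 of 15 alternatives kept the share within 1.5 times of 50%. From T = 2d to T = 4d the shares were 5.30% and 12.6%, with 14.3% for 2-kb windows and 43.7% with background scaling. From T = 4d to T = 6d they were 4.46% and 7.92%, with 10.6% when Upstate-type and lot 638466 chose.

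The ratio of edge to centre missed P of 0.01 with 2-kb windows (1.08), a limit of 5 (1.01), bridging (1.02) and lot 638466 as the only Abcam lot (1.02), and turned with the outer 2 windows (0.967). Domains against short runs turned with 2-kb windows (1.06), an Abcam limit of 2 (1.22), runs of 6 (1.03), bridging (1.02) and Upstate-type alone (1.01). It passed 0.01 with 10-kb windows (0.978), Abcam alone (0.920) and lot 58206 as the only Abcam lot (0.948), and, chosen after seeing the data, with the median of each chromosome (0.959), without chromosome 8 (0.970) and without domains over 5 times the Abcam median (0.941). Wide against narrow turned with Upstate-type alone (0.957) and without domains over 5 times the Abcam median (0.949), missed 0.01 with Abcam alone (1.0) and the median of each chromosome (1.01), and had no value with runs of 6, which left no narrow domain. The causes were not tested.

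The share more than 1.5-fold below T = 0 was 10.6% (Upstate-type), 17% (lot 58206) and 9.79% (lot 638466) when Upstate-type T = 0 chose alone, 22.0% and 34.6% for the lots when these chose alone, and 58.7%, 63.0% and 68.1% without chromosome 8.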
